A study of Mus musculus with 8 samples.

Results

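The mRNA of 6 matrix metalloproteinases (MMPs) and 3 tissue inhibitors of metalloproteinases (TIMPs) was followed in mouse muscle given extra spermine oxidase. All probes whose annotated symbol was Mmp2, Mmp3, Mmp9, Mmp12, Mmp13, Mmp14, Timp1, Timp2 or Timp3 were taken, which gave 15 of the 25697 probes on the array and 9 of its 16593 named genes. No further probe matched by a synonym. The 9 genes were chosen from earlier results of these data, on their spermine oxidase against control differences and their shared family, so these differences are given as a description and carry no test. Tibialis anterior muscles of male C57BL/6 mice aged 8 weeks received a plasmid for spermine oxidase (SMOX muscles, n = 4) or a control plasmid (control muscles, n = 4), and were taken 7 days later. Spermine oxidase, the product of Smox, oxidises the polyamine spermine to spermidine, with hydrogen peroxide and an aldehyde as by-products. The labels do not say how the plasmid was delivered, what the control plasmid encoded or what share of fibres took it up. Both tibialis anterior muscles of the mice were harvested, but the labels do not tie any muscle to a mouse. Some muscles may share an animal, within a group or across groups. The spread between samples may therefore not be the spread between independent mice, and may be partly technical.

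MMPs are zinc-dependent proteases that cut collagens, gelatins, elastin, proteoglycans and laminins, and most are secreted as inactive precursors that other proteases must cleave. TIMPs bind the active site of MMPs and block it, and TIMP2 also takes part in the activation of pro-MMP2 at the cell surface by MMP14. In skeletal muscle MMPs are known for remodelling the matrix around fibres after injury, when inflammatory cells, fibroblasts and regenerating fibres release them. Many MMP promoters carry sites for AP-1, the dimer of Fos and Jun proteins, close to the transcription start, and TGANTCA is the core of such a site.

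The promoters of Mmp13, Mmp12 and Mmp3 are shown because these are the 3 chosen genes that lie in one MMP cluster on chromosome 9. Their differences between SMOX and control muscles were unlike in size, and that of Mmp12 showed no stable direction. RefSeq promoter windows (GRCm38.p6, 250 bases before to 50 after an annotated start) were found for 7 of the 9 genes, all but Mmp2 and Mmp9. Each sequence is the 150 bases before the start on the plus strand, with TGANTCA and, where it falls inside the stretch, TATAAA in capitals.
Mmp13, chr9:7272364-7272513: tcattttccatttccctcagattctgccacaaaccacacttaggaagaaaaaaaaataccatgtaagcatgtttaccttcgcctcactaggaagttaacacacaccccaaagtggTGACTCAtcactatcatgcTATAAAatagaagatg
Mmp12, chr9:7347224-7347373: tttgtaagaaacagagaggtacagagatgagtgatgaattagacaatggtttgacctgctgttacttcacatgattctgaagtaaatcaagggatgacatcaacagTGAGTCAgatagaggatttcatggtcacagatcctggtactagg
Mmp3, chr9:7445672-7445821: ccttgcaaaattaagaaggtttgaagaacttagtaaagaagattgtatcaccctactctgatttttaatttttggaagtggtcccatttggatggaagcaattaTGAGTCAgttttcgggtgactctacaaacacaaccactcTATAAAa
TGANTCA began 35 bases before the start in Mmp13, 44 in Mmp12 and 46 in Mmp3. Of the 8 windows of the 7 genes, these 3 held it, and the other Mmp12 window and those of Mmp14, Timp1, Timp2 and Timp3 did not. Over all 32851 promoter windows of the same length, 7.81% held TGANTCA on either strand. TATAAA was found in the same 3 windows, against 13.6% of all windows, and never overlapped TGANTCA. In Mmp12 it began at the fifth base after the start. TGTGGT, a core bound by Runx factors, was found in the Mmp13 and Mmp14 windows and in 16.8% of all windows. AGGAAG, a core bound by the ETS factor PEA3, was found in the windows of Mmp13, Mmp3, Mmp14, Timp1 and Timp3, in the other Mmp12 window, and in 35.4% of all. A match is a run of letters, not a measured binding site.

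All values are log2 signals as deposited, and differences are SMOX minus control with the standard error (SE) from limma. Single values ran from 8.10 to 15.29 on a median of 8.33, and the floor near 8.10 shrinks the differences of dim probes. Levels of different probes are not comparable, and precision is limited by the number of arrays. Markers of mature muscle fibres averaged 14.42 to 14.54 in SMOX muscles and 14.28 to 14.44 in control muscles. Smox was higher after its plasmid on all 5 of its probes without overlap of the groups, by 1.15 to 3.44. The 3 Smox probes with differences of 3.30 to 3.44 each had an adjusted p of 0.139. In the limma fit over all probes 0 of 25697 probes passed an adjusted p of 0.05, while 2696 (10.5%) had an unadjusted p under 0.05. Another limma variance model, with a trend on intensity and a robust prior, called 23 probes and none of the 15. Some other alternatives, given in the part on processing, did call members. In the first fit 0 of the 15 probes passed, against 0% of all probes, and 5 had an unadjusted p under 0.05. The groups did not overlap for 3 of the 15, 2 lower and 1 higher in SMOX muscles. Over all probes 5.85% did not overlap, 2.4% lower and 3.44% higher. The muscle labelled control replicate 4 was the highest of the 8 muscles on 11 of the 15 probes, and on 15.97% of all probes. The 2 shares are not comparable, because the genes were chosen on group differences and 13 of the 15 probes were lower in SMOX muscles. Differences of the 9 genes are given with and without control replicate 4. For the other genes named, a value without 1 muscle is given where that muscle, of either group, moved the difference by over 1.5 times.

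The collagenase Mmp13 had by far the largest difference among these genes and the fourth largest of all probes. Mmp13 encodes a main enzyme of mice for cutting intact fibrillar collagen, and is known from cartilage, bone and wounds. Its brightest probe, ILMN_2737685, read 9.32, 10.41, 8.75 and 10.65 in SMOX muscles 1 to 4, against 12.38, 12.06, 11.66 and 12.58 in control muscles 1 to 4. Every SMOX muscle lay below every control muscle, by at least 1 unit, and SMOX muscles spread more widely (SD 0.90) than control muscles (SD 0.40). The difference was -2.39 ± 0.43 (SE, n = 4 each), a signal 5.23-fold lower. It was -2.25 ± 0.48 without control replicate 4. Between muscles of the same number it was -3.05, -1.65, -2.91 and -1.93, although no label says that equal numbers mark one animal.

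The other Mmp13 probes read much less. Probe ILMN_1249336 gave 8.25, 8.39, 8.25 and 8.38 in SMOX muscles, against 9.17, 8.85, 8.71 and 9.19 in control muscles. The groups again did not overlap, and the SMOX muscles lay around the array median of 8.33. Its difference was -0.66 ± 0.11, and -0.59 ± 0.11 without control replicate 4, on a scale that understates changes this near the floor. With the lowest value of each array subtracted on the linear scale and an offset of 16, the same probe gave -2.07, and the brightest gave -2.96. The third probe, ILMN_2799267, stayed between 8.23 and 8.30 in SMOX muscles and between 8.24 and 8.31 in control muscles, below the array median, and differed by -0.0041 ± 0.02, or -0.0059 ± 0.03 without control replicate 4.

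**Figure D1:**
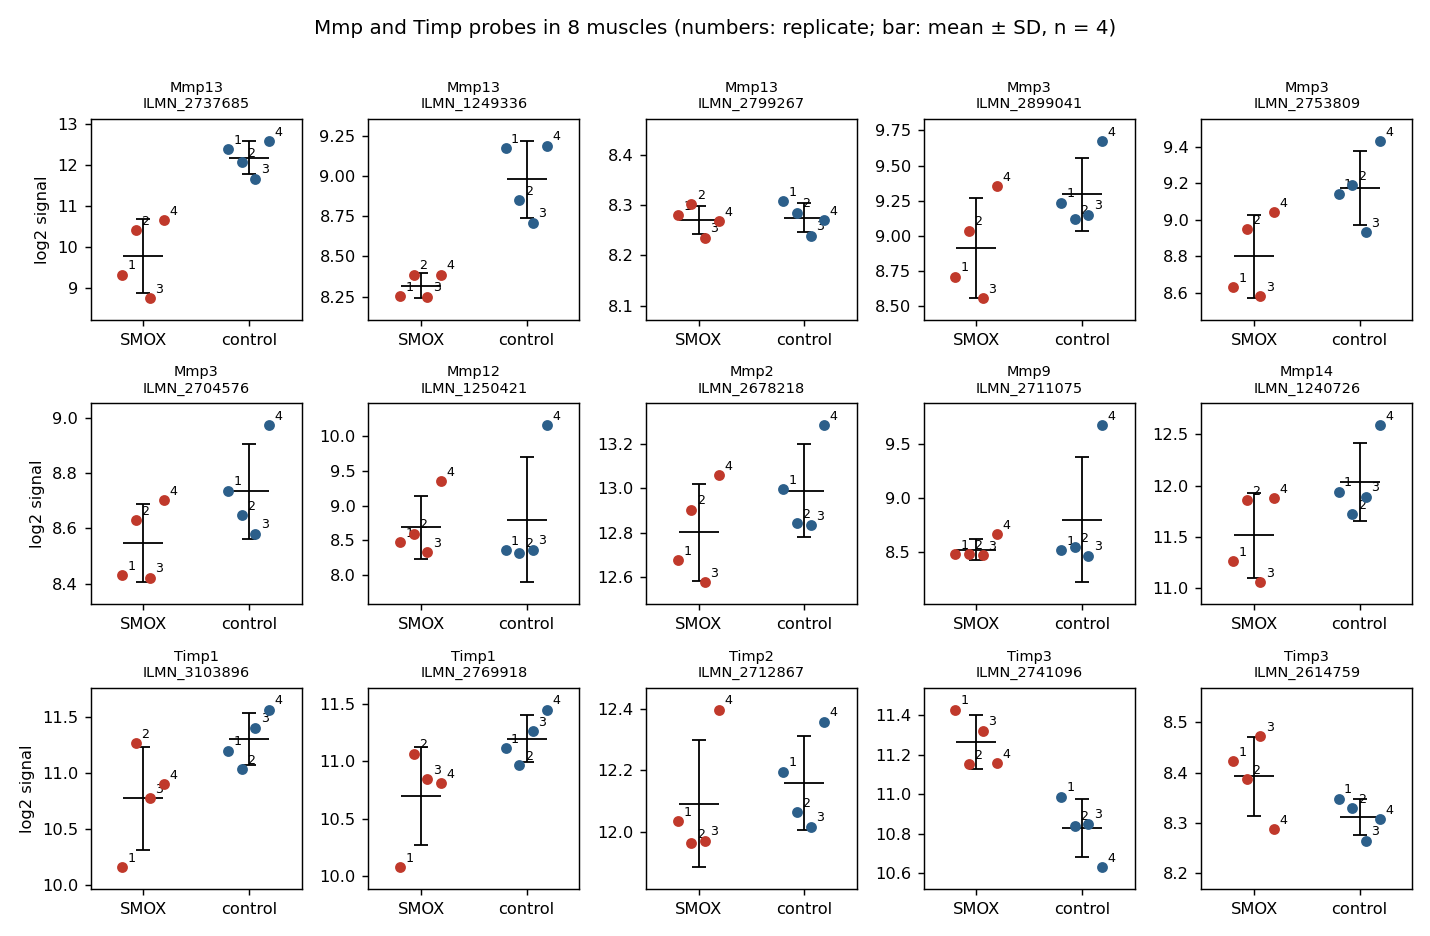
Log2 signal (vertical axis, own scale for each panel) of the 15 Mmp and Timp probes in 4 spermine oxidase (SMOX, red, left) and 4 control muscles (blue, right), numbered by replicate, with mean ± SD. The groups are apart for the brightest Mmp13 probe (9.78 in SMOX muscles, 12.17 in control muscles), for Mmp13 ILMN_1249336 and for Timp3 ILMN_2741096, and control muscle 4 stands alone for Mmp12 and Mmp9.

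The stromelysin Mmp3, which digests proteoglycans and activates other pro-MMPs, was lower on all 3 of its probes, with overlap. Probe ILMN_2753809 read 8.63, 8.95, 8.58 and 9.04 in SMOX muscles, against 9.14, 9.19, 8.93 and 9.43 in control muscles. SMOX muscles 2 and 4 lay within the range of the controls, and SMOX muscles 1 and 3 lay below it. The difference was -0.38 ± 0.14, and -0.29 ± 0.13 without control replicate 4. By number it was -0.51, -0.24, -0.35 and -0.39. The brightest probe, ILMN_2899041, averaged 8.91 ± 0.35 in SMOX muscles and 9.29 ± 0.26 in control muscles (SD, n = 4), with a difference of -0.38 ± 0.19 that was -0.25 without control replicate 4. The dimmest, ILMN_2704576, differed by -0.19 ± 0.10, and by -0.11 ± 0.08 without control replicate 4. All 3 probes lay not far above the floor, where the scale shrinks differences. With the background subtraction used for Mmp13, the brightest gave -0.79, ILMN_2753809 -0.81 and the dimmest -0.55.

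Mmp12, the elastase of macrophages, showed no stable direction. It read 8.47, 8.60, 8.33 and 9.35 in SMOX muscles, against 8.35, 8.32, 8.36 and 10.16 in control muscles. Number 4 was the highest of each group, and the other 6 muscles lay between 8.32 and 8.60. The difference of -0.11 ± 0.45 had the other sign without control replicate 4, at 0.34 ± 0.23, and was -0.33 without SMOX replicate 4.

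The gelatinases degrade denatured collagen and the collagen of basement membranes. Mmp2, the gelatinase that fibroblasts make constitutively, was a bright probe that read 12.67, 12.90, 12.58 and 13.06 in SMOX muscles, against 12.996, 12.84, 12.83 and 13.28 in control muscles. The ranges overlapped, and the difference of -0.19 ± 0.13 came to -0.087 ± 0.12 without control replicate 4 and to -0.11 without SMOX replicate 3. Mmp9, the gelatinase of neutrophils and macrophages, read 8.47, 8.48, 8.47 and 8.66 in SMOX muscles, against 8.52, 8.54, 8.46 and 9.67 in control muscles. As for Mmp12, a single control muscle set its mean. The Mmp9 difference was -0.28 ± 0.26 with that muscle and 0.014 ± 0.05 without it.

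Mmp14, the membrane-anchored MMP that activates pro-MMP2, read 11.26, 11.86, 11.06 and 11.88 in SMOX muscles, against 11.94, 11.72, 11.89 and 12.59 in control muscles. SMOX muscles 1 and 3 lay below all controls, and SMOX muscles 2 and 4 lay among them. The difference was -0.52 ± 0.25, and -0.34 ± 0.22 without control replicate 4. By number it was -0.68, 0.13, -0.84 and -0.71.

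The inhibitors did not move as one. Timp1, an inducible secreted inhibitor that also binds pro-MMP9, read on probe ILMN_3103896 10.16, 11.26, 10.77 and 10.90 in SMOX muscles, against 11.20, 11.03, 11.40 and 11.56 in control muscles. Only SMOX muscle 2 lay within the control range. The difference was -0.52 ± 0.23, and the other Timp1 probe, ILMN_2769918, gave -0.50 ± 0.21. Without control replicate 4 they were -0.44 ± 0.25 and -0.42 ± 0.23. Muscle SMOX 1 was the lowest on both probes, and without it the differences were -0.32 and -0.29. Timp2, the constitutive partner of MMP14, averaged 12.09 ± 0.21 in SMOX muscles and 12.16 ± 0.15 in control muscles (SD, n = 4). Its groups overlapped almost wholly, and the difference of -0.067 ± 0.11 was 0.00013 ± 0.11 without control replicate 4 and -0.17 without SMOX replicate 4, its highest muscle.

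Timp3, the inhibitor that stays bound to the matrix and also blocks the sheddase ADAM17, was the one gene of the 9 that was higher. Its brighter probe, ILMN_2741096, read 11.43, 11.15, 11.32 and 11.16 in SMOX muscles, against 10.99, 10.84, 10.85 and 10.63 in control muscles. Every SMOX muscle lay above every control muscle. The difference was 0.44 ± 0.09, or 1.35-fold, and 0.37 ± 0.08 without control replicate 4. By number it was 0.44, 0.31, 0.47 and 0.53. The dimmer probe, ILMN_2614759, lay near the array median at 8.39 ± 0.08 in SMOX muscles and 8.31 ± 0.04 in control muscles, overlapped, and differed by 0.080 ± 0.04, or 0.078 ± 0.05 without control replicate 4.

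**Figure D2:**
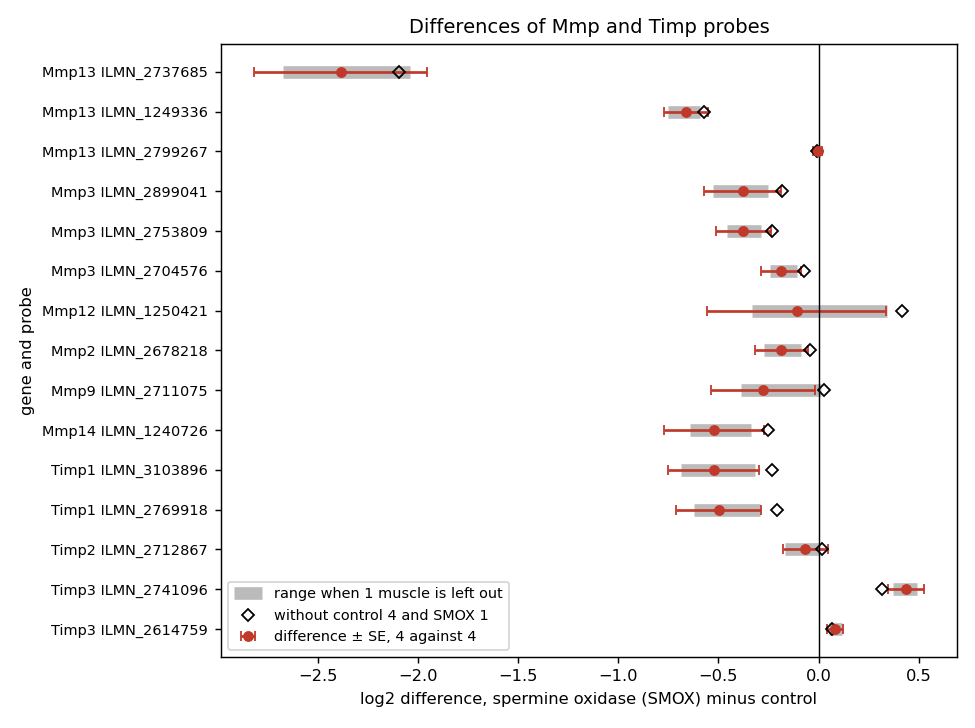
Log2 difference, SMOX minus control (horizontal axis), of each Mmp and Timp probe (vertical axis), with its SE (red), the range when any 1 of the 8 muscles was left out (grey) and the value without control muscle 4 and SMOX muscle 1 (diamond). The brightest Mmp13 probe stays between -2.68 and -2.04 in the grey range, while Mmp12, Mmp9, Timp2 and the floor probe of Mmp13 reach past 0.

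Some of the genes varied together within the groups, which is a property of the data that the choice of genes did not use directly. For each gene's brightest probe, the deviation of every muscle from its own group mean was taken, which removes the difference between the groups. Across the 8 muscles these deviations of Mmp13, Mmp3, Mmp2 and Mmp14 ran closely parallel, with Pearson correlations of 0.86 to 0.98 in their 6 pairs, and 0.93 to 0.98 over 7 muscles without control replicate 4. Among SMOX muscles the Mmp13 deviations were -0.46, 0.62, -1.03 and 0.87 for replicates 1 to 4, and those of Mmp14 were -0.25, 0.34, -0.46 and 0.36. SMOX muscles 2 and 4 were thus high and SMOX muscles 1 and 3 low for both genes. Over all 15 pairs of MMPs the correlations ran from 0.38 to 0.98. In the 13 pairs with Timp1 or Timp2, Timp3 left out, they ran from 0.17 to 0.84. Without control replicate 4 those 13 ran from -0.0040 to 0.92. Timp3 ran against the other 8 genes, with correlations of -0.82 to -0.47, and of -0.77 to -0.20 without control replicate 4. These are descriptions, and the genes share arrays and normalization. For Mmp13 the SMOX muscles gave most of the spread (SD 0.90, against 0.40 in control muscles). Leaving out control replicate 4 does not touch them. Some muscles may also share an animal, so the deviations of the 8 muscles may not be independent.

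**Figure D3:**
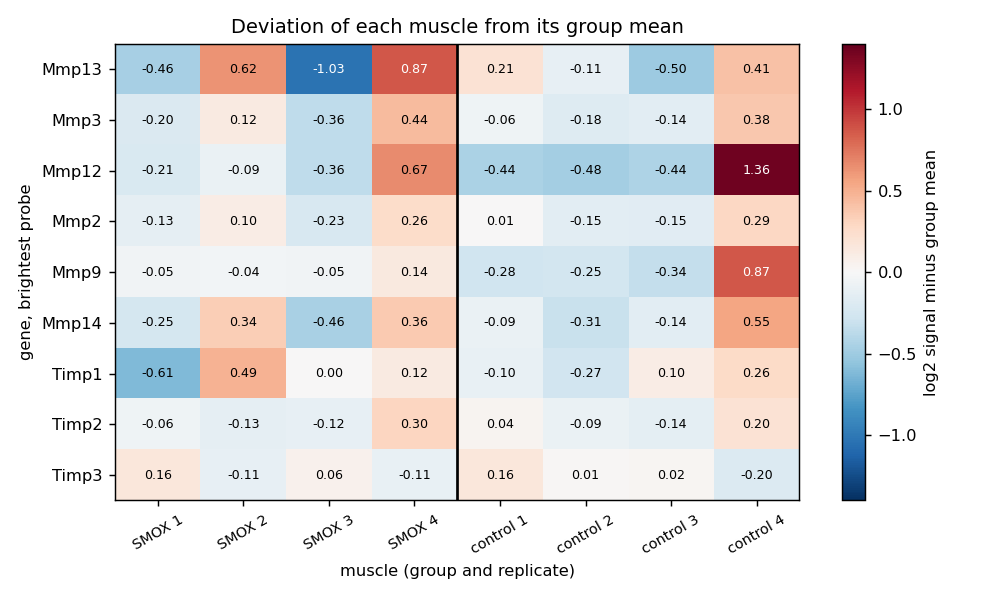
Deviation of each muscle from its group mean (colour and printed value, log2 units) for the brightest probe of each of the 9 genes (rows), with the 4 SMOX muscles left of the 4 control muscles (columns). Mmp13, Mmp3, Mmp2 and Mmp14 are high in SMOX 2 and 4 and low in SMOX 1 and 3, Mmp12 and Mmp9 peak in control 4 (1.36 and 0.87), and Timp3 mostly has the opposite sign.

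By the same measure the genes most like Mmp13 were sought among 1863 named genes with a mean above the array median and an SD of deviations of at least 0.15. The 6 highest were Mgp, the calcification inhibitor matrix Gla protein (0.95), Maged2 (0.94), Tnni1, the slow troponin I (0.92), Chrna1, the alpha subunit of the acetylcholine receptor (0.92), Igf2, a fetal growth factor (0.92), and Myh8, the perinatal myosin heavy chain (0.92). Mmp3 stood at rank 10, Mmp2 at rank 11 and Mmp14 at rank 21 of this order. Timp2 stood at rank 148 (0.67), Mmp12 at 250 (0.58), Timp1 at 334 (0.50) and Mmp9 at 457 (0.38). The 90th percentile of the genes was 0.63. The 3 lowest were Me1, the cytosolic malic enzyme (-0.95), Sqor, the sulfide quinone oxidoreductase (-0.91), and Fbp2, the muscle fructose bisphosphatase (-0.89). Without control replicate 4 these 9 correlations ran from 0.91 to 0.96 and from -0.95 to -0.89. SMOX muscles, with the wider Mmp13 spread (SD 0.90, against 0.40 in control muscles), weigh most in this order. It may therefore not be independent of the group differences. Those differences, which did not enter it directly, were -1.12 ± 0.27 for Maged2, -1.28 ± 0.38 for Myh8 and -0.45 ± 0.23 for Mgp. The last was -0.27 without SMOX replicate 3. Those of Me1, Sqor and Fbp2 were 0.92 ± 0.16, 0.26 ± 0.12 and 0.68 ± 0.13. None of these passed an adjusted p of 0.05 in limma (0.180 to 0.571 over the 9 genes).

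Genes around the MMPs were described in 6 lists, beside all 16593 genes, of which 8422 were lower and 8171 higher with a median of -0.00064. Of these lists' genes 0 passed the adjusted threshold in limma in either direction, as for all probes. Of 17 other MMPs 14 were measured, and 9 of these lay below the array median. There 8 were lower and 6 higher, with a median of -0.010. The other MMPs with the smallest p were Mmp10, a relative of Mmp3 (-0.093 ± 0.03), Mmp11, a stromal MMP (-0.12 ± 0.04), and Mmp20, the enamel MMP (-0.035 ± 0.02). Their limma adjusted p-values were 0.385 to 0.488. Differences of the 14 ran from -0.17 for Mmp23 to 0.099 for Mmp1a, which were named after their values were seen as the ends of the range. Mmp23 was at 0.0021 without control replicate 4, and Mmp1a at 0.055 without SMOX replicate 1. Of 8 other inhibitors of proteases and related matrix regulators 5 were higher and 3 lower, with a median of 0.018. Timp4, the inhibitor best known from heart and muscle, averaged 9.23 ± 0.43 in SMOX muscles and 8.75 ± 0.17 in control muscles (difference 0.48 ± 0.21, adjusted p = 0.475). SMOX muscle 1 was its highest, and without that muscle the difference was 0.28. Wfdc1, a secreted WAP-domain protein, differed by 0.28 ± 0.11 and Tfpi2, a Kunitz-type inhibitor, by -0.037 ± 0.02 at the floor (-0.023 without control replicate 2).

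Of 15 genes that activate or clear MMPs 11 were lower and 4 higher, with a median of -0.025 that was -0.010 without control replicate 4. Furin, the convertase that activates pro-MMP14, differed by -0.099 ± 0.07, Plaur, the urokinase receptor, by -0.092 ± 0.07 and Klkb1, plasma kallikrein, by 0.038 ± 0.03. The other 2 Furin probes, both dim, had the other sign (0.029 ± 0.02 and 0.024 ± 0.02), and the first was at -0.052 without SMOX replicate 1 and -0.054 without control replicate 3. Plaur was at -0.028 without control replicate 4 and -0.051 without SMOX replicate 1, and Klkb1 at 0.020 without SMOX replicate 2. Of 19 ADAM and ADAMTS proteases 8 were lower and 11 higher, with a median of 0.0014, and the 3 of smallest p were Adamts4, an aggrecanase (-0.21 ± 0.07), Adam12, a protease of fusing myoblasts (-0.19 ± 0.07, and -0.12 ± 0.04 without control replicate 4), and Adamts20 (-0.13 ± 0.05). Of 27 MMP substrates 21 were lower and 6 higher, with a median of -0.065. Without control replicate 4 these were 18 and 9, with a median of -0.024. Fmod, the collagen-binding proteoglycan fibromodulin, went the other way. It read 10.27, 10.83, 10.78 and 10.45 in SMOX muscles, against 9.96, 9.43, 9.27 and 9.44 in control muscles, without overlap (difference 1.06 ± 0.18, adjusted p = 0.180). Col5a1, a chain of fibrillar collagen V, differed by -0.66 ± 0.28, which was -0.46 without control replicate 4. Hspg2, the basement membrane proteoglycan perlecan, differed by -0.28 ± 0.11.

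Of 26 transcription factors and cytokines that act on MMP genes 15 were lower and 11 higher, with a median of -0.036. Tgfb1, a cytokine that regulates matrix genes, read 8.94, 9.41, 9.32 and 9.33 in SMOX muscles, against 9.50, 9.62, 9.68 and 9.81 in control muscles. The groups did not overlap, and the difference was -0.40 ± 0.11 (limma adjusted p = 0.287). Ets2, an ETS factor, was higher without overlap, at 0.15 ± 0.04, and Runx1 differed by -0.095 ± 0.03.

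**Figure D4:**
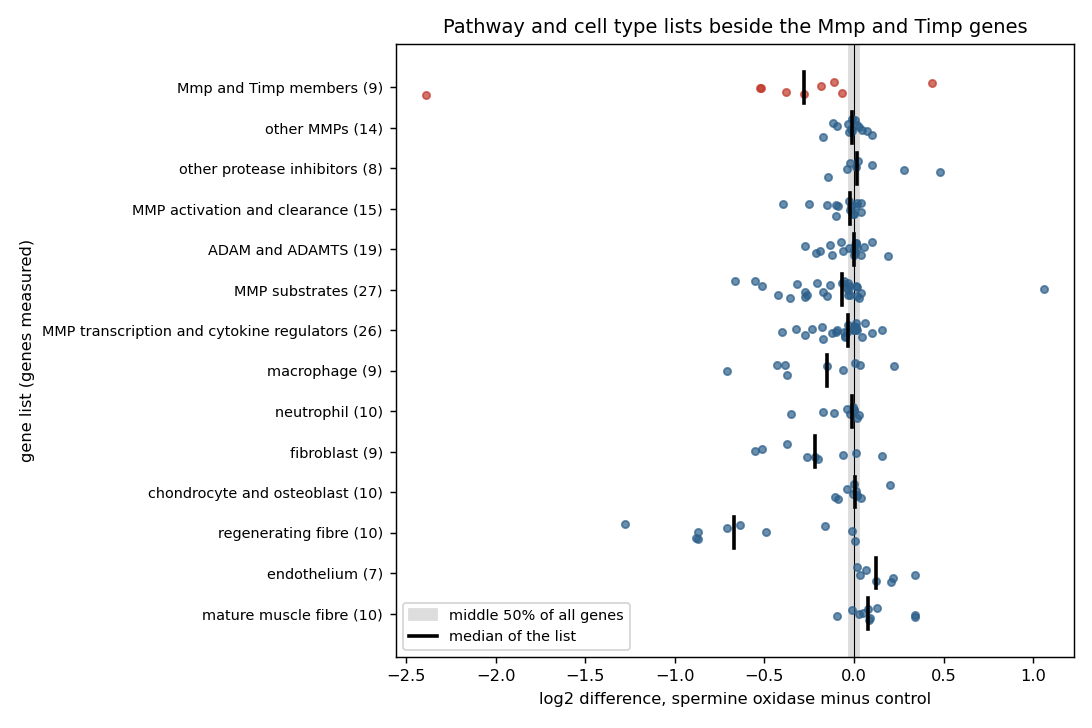
Log2 difference, SMOX minus control (horizontal axis), of the 9 Mmp and Timp genes (red) and of the genes of 13 lists (blue), each by its brightest probe, with list medians (black bars) and the middle 50% of all genes (grey, -0.030 to 0.027). The list of regenerating fibre genes has the lowest median (-0.67), and Mmp13 lies to the left of every list gene.

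Whole muscle was measured, so fewer cells of a type and less RNA per cell cannot be told apart. Markers of 7 cell types or fibre states were counted in the same way, and 0 passed the adjusted threshold in limma. Of 10 regenerating fibre genes 9 were lower and 1 higher (median -0.67), and the mean log2 level of the list was 10.30 to 11.05 in SMOX muscles and 11.07 to 11.46 in control muscles, without overlap. Myl4, an embryonic myosin light chain, differed by -0.87 ± 0.18, Chrng, the fetal acetylcholine receptor subunit, by -0.88 ± 0.24 and Ncam1 by -0.63 ± 0.16. The other, dimmer Ncam1 probe gave -0.13 ± 0.05. Myf5 and Pax7 lay below the array median. Chrna1, Igf2 and Myh8, among the 6 genes most like Mmp13 within groups, stand in this list. Of 9 macrophage markers 6 were lower and 3 higher (median -0.15), but 4 were lower and 5 higher without control replicate 4 (median 0.0063). Their mean level was 10.45 to 10.83 in SMOX muscles and 10.80 to 11.18 in control muscles, with control replicate 4 the highest, and no higher than 10.88 in the other 3 controls. Ms4a7 differed by -0.71 ± 0.19 and C1qa by -0.43 ± 0.14 (-0.28 without SMOX replicate 1), while Cd163, a marker of resident macrophages, differed by 0.22 ± 0.04, each without overlap. Dimmer probes gave -0.30 ± 0.18 for Ms4a7 and 0.022 ± 0.015 for Cd163. Of 9 fibroblast markers 7 were lower and 2 higher (median -0.22, and -0.11 without control replicate 4), at 11.16 to 11.80 in SMOX muscles and 11.41 to 11.91 in control muscles. Control replicate 4 was the highest, and the other 3 controls reached no more than 11.55. Lum, the proteoglycan lumican, differed by -0.51 ± 0.26 and Mfap5, a microfibril protein, by -0.37 ± 0.20. Without control replicate 4 these were -0.34 ± 0.24 and -0.24 ± 0.20. Pdgfra, a receptor for platelet-derived growth factor, differed by -0.20 ± 0.10. Lum was at -0.34 without SMOX replicate 3 as well.

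Neutrophil markers lay mostly at the floor, with 7 of 10 below the array median, Elane, Mpo and S100a9 among them. Their mean level was 8.42 to 8.48 in SMOX muscles and 8.47 to 8.59 in control muscles (up to 8.51 without control replicate 4), with 7 genes lower and 3 higher (median -0.013). S100a8 differed by -0.35 ± 0.23, read highest in control replicate 4, and was at -0.17 ± 0.19 without it and at -0.21 without SMOX replicate 3. Retnlg differed by -0.17 ± 0.08 and Ngp by -0.037 ± 0.02 (-0.023 without control replicate 1). Of 10 markers of chondrocytes and osteoblasts, cells known for Mmp13, 6 lay below the array median, Col2a1, Col10a1, Acan and Ibsp among them. Their mean level was 8.30 to 8.35 in SMOX muscles and 8.29 to 8.36 in control muscles (median 0.0052, 6 higher and 4 lower). Sox9 differed by -0.11 ± 0.04, Alpl by 0.20 ± 0.07 and Acan by 0.040 ± 0.03 (0.019 without control replicate 2). The other Acan probe gave -0.045 ± 0.03. All 7 endothelial markers were higher (median 0.12), at 9.30 to 9.49 in SMOX muscles and 9.22 to 9.27 in control muscles, with Tek at 0.34 ± 0.06, Pecam1 at 0.21 ± 0.04 and Cdh5 at 0.12 ± 0.05 (0.082 without SMOX replicate 1). Of 10 mature fibre markers 8 were higher and 2 lower (median 0.080), with Pygm at 0.34 ± 0.09, Myh4 at 0.34 ± 0.11 and Pvalb at 0.050 ± 0.02. The limma adjusted p-values of the 39 genes named from the lists ran from 0.180 to 0.730. The part that the cell makeup of the muscles had in the Mmp and Timp differences was not tested.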

How the data were processed

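Total RNA of 8 muscles was hybridised to Illumina bead arrays, 1 per muscle; per the labels' protocols TRIzol extraction and column purification with DNase came before amplification and biotin labelling. The authors' deposited log2 values were used, the scale being read from their range; their near-identical distributions show normalization between arrays. The normalization method, background treatment and software used are not stated in the labels, and no depth applies to arrays. Probes were named from GEO's platform annotation (23978 with 1 gene, 1719 unnamed here). Each probe was fitted with limma 3.58.1 in R 4.3.3 (lmFit, eBayes, two-sided), without a replicate block, with Benjamini-Hochberg adjustment over 25697 probes. A gene in a list is represented by its brightest probe. Python 3.11.15 and matplotlib 3.10.9 were used for plots.

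The members and lists were chosen with earlier results of these data known. Named genes were all probes of the 9 members, Smox, up to 3 genes of smallest p per list, and the 6 most and 3 least like Mmp13 within groups; markers below the array median were named after their values were seen. Simulated data with known changes served to check these fits. Alternatives were a replicate block, 3 normalizations, background subtraction, filters on the dimmest 40% and 60% of probes, 2 probe summaries, other variance models, array weights (statmod 1.5.0) and leaving out muscles.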

Additional observations from a re-analysis of the deposited data

Results flagged for a closer look

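Among 136 groups of 4 muscles examined for the Mmp, Timp, Smox and named genes, 9 held 1 muscle far from the other 3; chance alone would mark about 1 in 20 groups. Control replicate 4 was high for Mmp12 (10.16, the others 8.32 to 8.36), Mmp9 (9.67, the others 8.46 to 8.54) and Plaur (8.72, the others 8.45 to 8.49). SMOX replicate 4 was high for Mmp9 (8.66, the others 8.47 to 8.48), Timp2 (12.40, the others 11.96 to 12.03) and Col5a1 (12.38, the others 11.39 to 11.52). SMOX replicate 1 was high for Wfdc1 (11.99, the others 11.63 to 11.67) and Ets2 (11.56, the others 11.43 to 11.45). Control replicate 2 was low for Acan, at the floor (8.20, the others 8.28).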

How the results depend on the processing

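Of 286 member values under the 20 alternatives, 279 moved by less than 1 SD within groups, and 12 changed sign, on Mmp12, Mmp9, Timp2 and the floor probe of Mmp13. The mean of a gene's probes gave -1.02 for Mmp13, since its dimmer probes (-0.66 and -0.0041) enter it, and 0.26 for Timp3. Background subtraction gave -0.79, -0.81 and -0.55 for the Mmp3 probes and 0.42 for the dimmer Timp3 probe. It called 5 probes, 1 of them a member (Mmp13 ILMN_1249336, limma adjusted p = 0.0188). As the members were chosen on this contrast, that call is a description and no test. Without the dimmest 60% of probes 3 were called and with the intensity trend 23, no member among them. Leaving out 1 muscle called 0 to 21 probes (21 without SMOX replicate 2), 0 members, and gave -2.68 to -2.04 for the brightest Mmp13 probe. Without control replicate 4 and SMOX replicate 1 together, chosen after seeing the data, 0 were called and Mmp13 gave -2.09.

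A fit with a replicate block let 334 of 25697 probes (1.3%) and 3 of 15 member probes pass. These were Mmp13 ILMN_2737685 (limma adjusted p = 0.0358), Mmp3 ILMN_2753809 (0.0415) and Timp3 ILMN_2741096 (0.0260). The shares of members and of all probes are not comparable, because the members were chosen on these same differences. For the same reason the members' adjusted p-values are descriptions and no test. Deviations of same-numbered muscles correlated at 0.58, -0.13, 0.65 and 0.60 over all probes, and the labels do not tie a number to one mouse, so the numbers were not taken as pairs. As a hint from the data, 3 of 4 SMOX muscles, all but number 2, correlated best with the control muscle of their own number. Of the 9 genes most or least like Mmp13, 4 passed under the block: Tnni1 (limma adjusted p = 0.0170), Fbp2 (0.0279), Me1 (0.0303) and Maged2 (0.0424). Of 767 values of named list genes 5 passed, all under the block (Col5a1, Ms4a7, Lum, Myl4, Ncam1), and 2 changed sign: Plaur (0.013, without both muscles) and Acan (-0.0025, mean of its probes).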

Other observations

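Mmp13, Mmp12 and Mmp3 belong to a run of 10 neighbouring MMP genes on mouse chromosome 9, in the order Mmp13, Mmp12, Mmp1b, Mmp3, Mmp1a, Mmp10, Mmp8, Mmp27, Mmp20 and Mmp7. Of these, 9 were on the array, and the brightest probes of 5 (Mmp1b, Mmp10, Mmp8, Mmp20 and Mmp7) lay below the array median. Mmp13 differed by -2.39 ± 0.43 and its neighbour Mmp12 by -0.11 ± 0.45. Mmp1a, a collagenase of rodents, averaged 8.90 in SMOX muscles and 8.80 in control muscles (difference 0.099 ± 0.06). Its difference was 0.055 without SMOX replicate 1, and 0.033 for the mean of its 2 probes. Mmp1b differed by 0.042 ± 0.02. TGANTCA was found in a promoter window of 8 of the 10 genes, all but Mmp8 and Mmp27, and TATAAA in all but Mmp27. Over all promoter windows 7.81% held TGANTCA, 13.6% held TATAAA and 1.54% held both. These shares are per window while the counts are per gene, and Mmp12 and Mmp7 have 2 windows each. Whether these motifs had a part in the differences was not tested.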
